A study of Mus musculus with 4 samples.

Results

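Interferon-stimulated genes are the antiviral and immune effector genes that cells switch on upon sensing type I or type II interferon. Their accessible chromatin was examined in wild-type mouse BMDMs by ATAC-seq, an assay that marks open DNA through adapters inserted by the Tn5 transposase. Peaks sharing 1 bp or more across the 4 libraries were joined into regions, each region took the gene name of its highest peak, and regions named after 1 of 47 listed genes were taken as members. The rule found 153 member regions among 60710 in all, and 44 of the 47 genes had at least 1. Isg15, Ifi44 and Tap1 had none. BMDMs are bone marrow-derived macrophages, here from wild-type mice of 8 to 12 weeks, differentiated for 6 days with L929 supernatant, which supplies macrophage colony-stimulating factor. Of the 4 libraries, 2 came from cells left untreated (control) and 2 from cells given IL-4 at 20 ng/ml for 1 h, and all carried the same wild-type genotype. The study's methods describe biological replicates, and whether control and IL-4 cells came from the same animals is not given in the sources used here. No interferon was added in any group.

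Type I interferon signals through the kinases JAK1 and TYK2 to the interferon-stimulated response element (ISRE) of its target genes. Type II interferon acts on the gamma-activated site (GAS). IL-4 uses the same kinase family but activates STAT6, which prefers the GAS palindrome with its arms 1 base further apart. Macrophages are known for a basal interferon tone that keeps many of these promoters accessible before any infection. The comparison therefore asks where the chromatin of this gene set stood before IL-4, and whether it differed after 1 h.

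The ISRE was searched as GAAANNGAAA on both strands, where N is any base. Promoter sequences of RefSeq (GRCm38.p6, 250 bases before to 50 after each start) were at hand for 38 of the 47 genes. Oas2, Mx1, Mx2, Usp18, Dhx58, Iigp1, Parp9, Parp14 and Zbp1 had no entry. Of the 38 genes, 20 (52.6%) held the ISRE letters, against 3.99% of all 27025 genes in the table. The stretches that follow are shown because they are the ISRE-bearing promoters the results turn on. Each is 80 bases on the strand of its gene and lies wholly before the RefSeq start, with every base of an ISRE match in capitals. TTTC letters are the same motif read on the other strand.
Gbp7, chr3:142530248-142530327, + strand: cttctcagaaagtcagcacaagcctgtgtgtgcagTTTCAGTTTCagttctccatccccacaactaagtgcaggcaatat
Ifit3, chr19:34583355-34583434, + strand: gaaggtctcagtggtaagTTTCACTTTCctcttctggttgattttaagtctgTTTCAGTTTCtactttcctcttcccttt
Ifit1, chr19:34640759-34640838, + strand: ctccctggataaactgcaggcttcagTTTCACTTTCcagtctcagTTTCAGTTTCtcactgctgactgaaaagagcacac
Rsad2, chr12:26456528-26456607, - strand: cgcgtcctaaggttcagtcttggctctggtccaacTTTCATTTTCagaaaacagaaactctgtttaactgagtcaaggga
Trim30a, chr7:104465194-104465273, - strand: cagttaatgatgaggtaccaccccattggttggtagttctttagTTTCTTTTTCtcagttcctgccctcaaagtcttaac
Irgm1, chr11:48871421-48871500, - strand: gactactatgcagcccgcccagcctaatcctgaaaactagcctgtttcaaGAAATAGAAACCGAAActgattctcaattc
Gbp2, chr3:142620569-142620648, + strand: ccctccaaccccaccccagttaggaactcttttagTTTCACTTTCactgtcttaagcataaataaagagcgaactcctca
Igtp, chr11:58199476-58199555, + strand: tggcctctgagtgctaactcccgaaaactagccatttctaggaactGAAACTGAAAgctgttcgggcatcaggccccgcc
Irgm2, chr11:58214878-58214957, + strand: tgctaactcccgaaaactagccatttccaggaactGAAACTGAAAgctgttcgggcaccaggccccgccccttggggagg
Ifitm2, chr7:140955963-140956042, - strand: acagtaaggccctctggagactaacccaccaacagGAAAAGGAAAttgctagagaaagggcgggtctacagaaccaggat
Isg15, chr4:156200846-156200925, - strand: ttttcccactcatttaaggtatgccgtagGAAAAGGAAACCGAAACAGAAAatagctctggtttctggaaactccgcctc

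The Isg15 stretch holds 3 overlapping matches, the Irgm1 stretch 2 overlapping matches, and Ifit1 and Ifit3 each hold 2 separate matches. Igtp and Irgm2 encode immunity-related GTPases that lie side by side on chromosome 11. Aligned without gaps on their ISRE, their promoters were identical at 78 of 80 bases, from 40 bases before the first base of the match onwards. Over the longer stretch of 270 bases that both table entries cover, 184 bases (68.1%) were identical. No gaps were allowed there either, so this share does not show where the likeness ends. Reads from such near copies can be misplaced or dropped, and how the alignment treated them is not given in the sources used here, so values at Igtp and Irgm2 are uncertain. The same holds for the Ifit, Oas, Mx, Gbp and Trim30 families, which also contain close paralogs.

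The deposited peak score is called peak height here. It was taken to be the −log10 MACS2 q-value, which no label states, so that a height measures the evidence for a peak against its own library and not a number of reads. Peak numbers ran from 39462 to 45250 per library, the median height of the regions found in all 4 libraries ran from 8.86 (IL-4 replicate 2) to 12.5 (control replicate 1), and the read depth is unknown. Members held 121 and 108 control peaks and 115 and 111 peaks after IL-4 (114.5 ± 9.19 against 113.0 ± 2.83, SD, n = 2 each, two-sided exact permutation p = 1.0, where 0.3333 is the smallest p this design allows). Of 9 macrophage marker symbols, 5 or 6 had a peak within 1 kb of the start in each library. Among them were Cd68, Mertk, Itgam and Fcgr1, while Csf1r had none. The symbols Spi1 and Adgre1 named no peak anywhere. For such symbols a missing peak cannot be told from another gene name in the annotation. Markers of T cells, B cells and erythroid cells had no peak within 1 kb of the start in any library. Of these symbols, only Lck, Cd8a and Ms4a1 named a peak anywhere. The dendritic cell markers had peaks in 3 libraries (9.22, 2.36 and 9.33 at Flt3, 3.52, 5.40 and 3.45 at Zbtb46) and none in IL-4 replicate 2. Of the neutrophil markers, S100a8 had a peak in every library, and Ly6g, Elane and Mpo had none. Of the fibroblast markers, Pdgfra had a peak in control replicate 1, and Col1a1 and Col1a2 had none. The summed height of the macrophage markers was 64.4 and 51.0 in the control and 58.9 and 53.0 in the IL-4 libraries, and the part of other cell types in the results was not tested.

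Most interferon-stimulated genes already had an accessible start site in untreated macrophages. A peak lay within 1 kb of a RefSeq start in all 4 libraries for 27 of the 38 genes (71.1%), against 32.8% of all genes in the table, which also lists genes that macrophages do not use. Another 7 genes had such a peak in 1 to 3 libraries and 4 had none. The highest start sites belonged to Herc6, a HECT-type ubiquitin ligase of the ISG15 system, with heights of 28.3 and 28.8 in control and 29.4 and 25.03 in IL-4. Trim30a, of the TRIM family of ubiquitin ligases, was next by the mean over the 4 libraries, but its values mixed 2 RefSeq starts. The start at chr7:104446125 had 30.99 and 22.5 in control and 16.2 and 18.5 in IL-4. The start at chr7:104465193 had 21.1 and 20.2 in control and 25.97 and 15.95 in IL-4. Taken alone, their regions had mean heights of 22.0 and 20.8, below the 22.99 of Gbp7. Gbp7, a guanylate-binding GTPase, owed its place to 1 library, with 19.5 and 19.1 in control and 34.3 and 19.1 in IL-4. Adar and Cmpk2 had higher or similar control values (26.4 and 19.7, 23.6 and 18.9). The Ifit3 start, which serves an RNA-binding antiviral protein, had 26.3 and 14.1 in control and 26.7 and 13.7 in IL-4, so that the replicates of each group lay further apart than the groups did. 

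The genes with no peak near the start were Isg15, Oasl1, Gbp5 and Ifi44. Isg15 encodes the ubiquitin-like protein that names its own conjugation system, and no library had a peak over its 3 overlapping ISRE matches. Over all 20 genes with an ISRE in the RefSeq promoter, a match lay under a peak of all 4 libraries in 10 genes and under no peak in Gbp3, Gbp5 and Isg15. Gbp3 had peaks on both sides, at −303 bp and at +614 bp from the start used by the annotation, but none over its matches. Ifit1 had peaks over both of its matches in all 4 libraries, with heights of 8.55 and 17.9 in control and 17.2 and 13.1 in IL-4. The control libraries name the gene of those peaks 2010002M12Rik and the IL-4 libraries name it Ifit1. This region (chr19:34640653-34640937) is not counted among the members for that reason, and its log2 change was 0.50 ± 0.39 (SE, limma adjusted p = 0.785). Tap1 and Psmb9, a peptide transporter subunit and an immunoproteasome subunit, share 1 divergent promoter, and its region went to Psmb9.

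**Figure D1:**
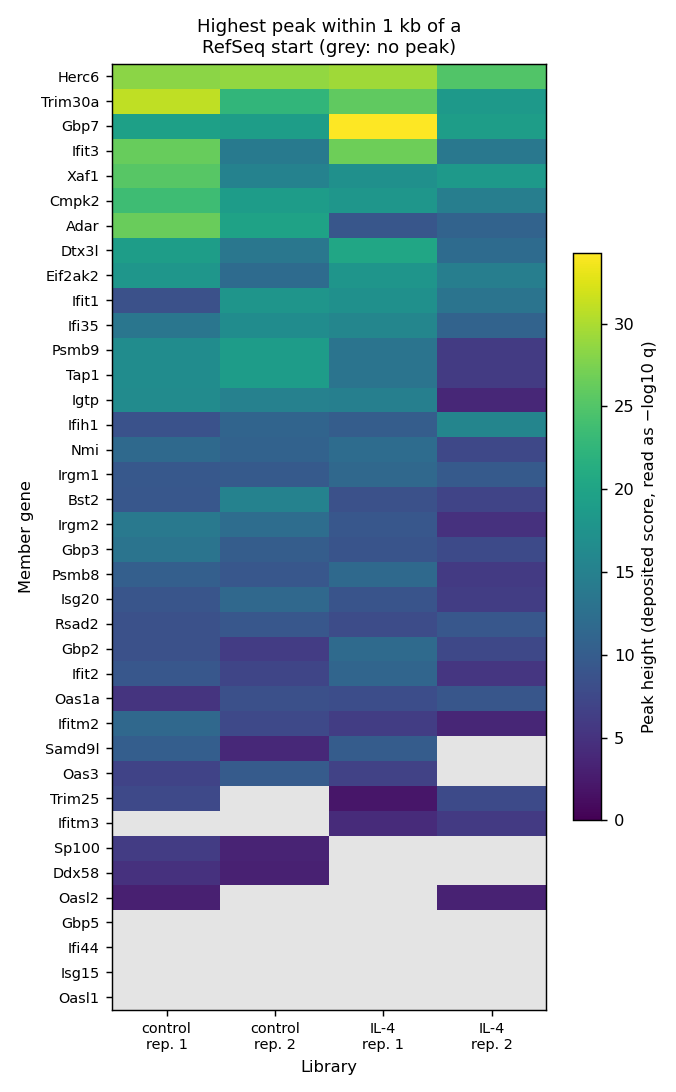
Heat map of the highest peak within 1 kb of a RefSeq start for 38 member genes (rows, by mean height with no peak as 0) in the 4 libraries (columns). A gene with several starts takes the highest peak over them in each library, so the Trim30a row mixes 2 starts. Colour gives the deposited score, read as −log10 of the q-value, and grey marks no peak. Herc6, Trim30a and Gbp7 lie at the top, 27 genes are coloured in all 4 libraries, and Gbp5, Ifi44, Isg15 and Oasl1 are grey throughout.

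Member regions lay closer to start sites than regions in general. Of the 153, 41 (26.8%, Wilson 95% confidence interval 20.4 to 34.3) were promoters by the deposited annotation, 38 (24.8%) introns and 63 (41.2%) intergenic, against 18.8%, 40.2% and 35.8% of all regions. The median distance to the start was 4440 bp for members and 14419 bp for all regions. Parp14, Samd9l and Ifitm3 had the most regions (8 each), and 9 genes had a single region. Of the 49 member regions annotated to a part of a gene other than its promoter, 9 sat in a transcript of a different gene. For example, the Mx1 region at +31313 bp lay in intron 8 of Bace2 and the Eif2ak2 region at −8661 bp in intron 4 of Sult6b1, so that the gene name there only marks the nearest start.

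**Figure D2:**
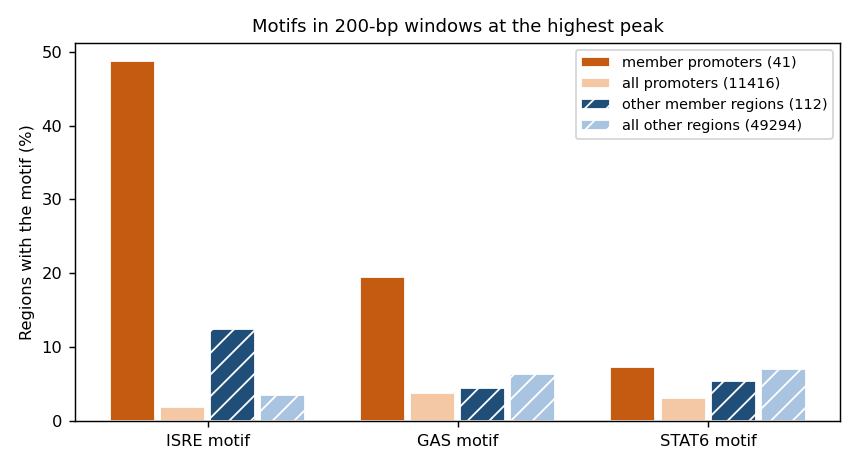
Percent of regions (y axis) whose 200-bp window at the highest peak holds the ISRE, GAS or STAT6 letters, for member promoters (41), all promoters (11416), other member regions (112) and all other regions (49294). Member promoters stand apart for the ISRE, at 48.8% against 1.86% of all promoters.

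In a 200-bp window centred on the highest peak of each region, 34 of 153 member regions (22.2%, Wilson 95% confidence interval 16.4 to 29.4) held the ISRE, against 3.17% of all regions. Member promoters held it in 20 of 41 cases (48.8%), against 1.86% of all promoter windows, and the other member regions in 14 of 112 (12.5%), against 3.47%. The genes were listed for their response to interferon, so a high share belongs to the set by its choice. Of the 34 member regions with the ISRE, 26 (76.5%) had a peak in all 4 libraries, and of the 119 without it 50 (42.0%) did. Over all regions these shares were 39.6% with the ISRE and 42.0% without it. Of the 34 member regions with the ISRE, 20 were promoters. A peak in all 4 libraries was found for 75.6% of member promoters and 40.2% of other member regions. Over all regions the shares were 69.4% and 35.5%. The ISRE shares were not split by promoter, so these shares alone do not tell the motif and the location apart. The GAS, searched as TTCNNNGAA, was found in 13 of 153 member windows (8.50%), against 5.85% of all. It was in 8 of 41 member promoters (19.5%), against 3.82% of all promoters, and in 4.46% of the other member regions, against 6.33% of all other regions. ETS-IRF composite letters (GGAANNGAAA), which can overlap an ISRE, were in 7.19% of member windows and 4.18% of all. The PU.1 letters (GAGGAAGT) were in 9.80% and 9.30%, the AP-1 letters (TGANTCA) in 16.3% and 20.7% and the NF-kB letters (GGGNNNNNCC) in 39.9% and 33.6%. All were read on both strands.

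The STAT6 letters (TTCNNNNGAA) were in 9 of 153 member windows (5.88%), against 6.32% of all regions. In promoter windows the order was the other way, with 3 of 41 members (7.32%) against 3.12% of all promoters, and so it was in RefSeq promoters, with 5 of 38 member genes (13.2%) against 8.01% of all genes. Of the 5 member windows with the letters in regions found in all 4 libraries, 2 sites are printed as examples. Both had a change above 0, and the other 3 had changes below 0. The capitals mark the STAT6 letters on the + strand.
Gbp2, at −827 bp, chr3:142619854-142619893: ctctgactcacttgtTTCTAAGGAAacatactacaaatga
Ifih1, intron 1, chr2:62643586-62643625: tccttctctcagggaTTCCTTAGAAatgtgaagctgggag
The Gbp2 region had heights of 8.48 and 6.03 in control and 11.8 and 6.34 in IL-4 (log2 change 0.51 ± 0.50, SE, limma adjusted p = 0.852). The Ifih1 region had 5.57 and 4.64 in control and 7.99 and 5.13 in IL-4 (0.60 ± 0.54, SE, adjusted p = 0.821). The 3 others had log2 changes of −0.64 ± 0.49 (Usp18, at −15776 bp), −0.19 ± 0.57 (Ifit3, at −13237 bp) and −0.08 ± 0.55 (Dtx3l, at +23 bp, SE). Over the 5 member regions with the STAT6 letters that were found in all 4 libraries the median log2 change was −0.08, whereas over the 1318 such regions of the whole data set it was 0.29. Regions without the letters had medians of 0.15 in members and −0.01 in all. With 5 regions, the members give no basis for a statement on this motif.

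The first comparison of the groups used the 76 member regions with a peak in all 4 libraries, since a height exists there in every sample. They are called constant regions here. No member region passed the threshold of an adjusted p of 0.05 in limma, in either direction. Over all 25442 regions tested, 0.0157% passed as higher after IL-4 and 0.00786% as lower. At an unadjusted limma p under 0.05, 3 member regions were higher (background 4.12%) and 3 were lower (background 4.15%), and no other tool was run on heights. The median log2 change was 0.14 in members and 0.00 over all regions, with an SD over regions of 0.54 and 0.50. Of the 76 changes, 45 (59.2%) were above 0, against 49.9% over all regions. The member median was 0.07 in the first pair of replicate numbers and 0.13 in the second. Without control replicate 2 it was 0.01, without control replicate 1 it was 0.07 and without IL-4 replicate 1 it was 0.06, so that its size rests on single libraries. After normalisation, both IL-4 libraries lay above both control libraries in 20 members (26.3%, background 19.2%) and below both in 17 (22.4%, background 18.6%).

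**Figure D3:**
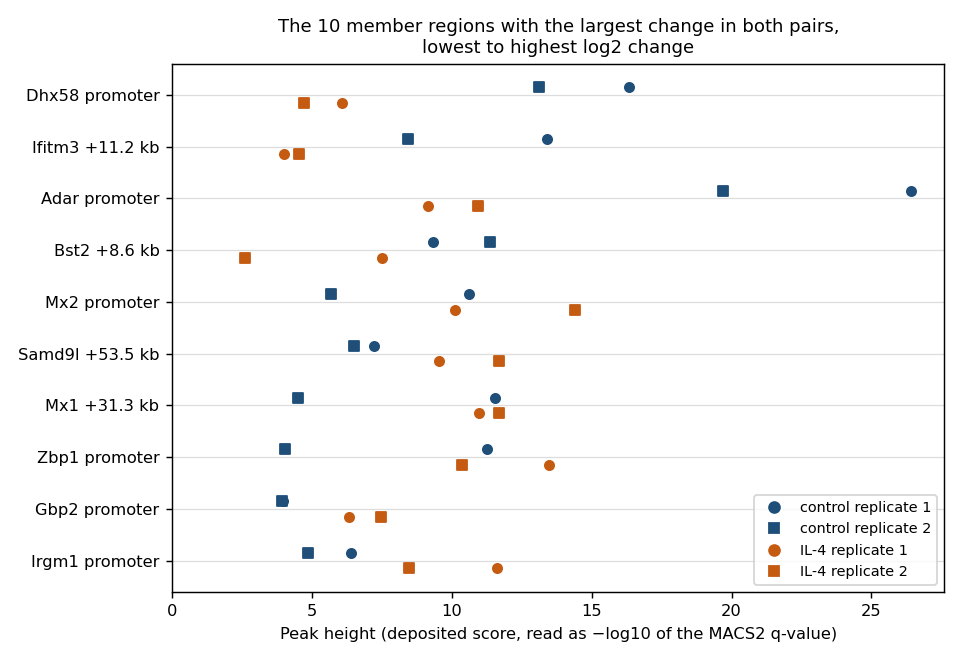
Deposited peak height in each library (x axis, the score read as −log10 of the q-value, starting at 0) for the 10 member regions with the largest log2 change in 1 direction in both replicate pairs (rows). Blue marks control and orange IL-4, circles replicate 1 and squares replicate 2. Dhx58, Ifitm3, Adar and Bst2 regions have both orange points to the left of both blue points, and at Gbp2 the control points (3.95 and 3.92) coincide.

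Among the sensors of nucleic acids, Dhx58 had the lowest change and Zbp1 the highest. Dhx58 encodes LGP2, a helicase that tunes the RIG-I-like receptors. Its promoter (chr11:100704182-100704480) had heights of 16.3 and 13.1 in control and 6.09 and 4.72 in IL-4. Both IL-4 libraries were lower than both controls, with a log2 change of −1.22 ± 0.47 (SE, n = 2 against 2, limma adjusted p = 0.435). Adar encodes the RNA-editing deaminase that marks self RNA, and its downstream promoter (chr3:89730466-89730806) had 26.4 and 19.7 in control and 9.15 and 10.9 in IL-4 (−0.998 ± 0.35, SE, adjusted p = 0.378, the lowest of all members). The groups did not overlap there either. Zbp1, a sensor of Z-form nucleic acids, went the other way at its promoter (chr2:173218801-173219161), with 11.2 and 4.02 in control and 13.5 and 10.3 in IL-4 (1.02 ± 0.48, SE, adjusted p = 0.577). Its untransformed heights overlapped, since control replicate 1 exceeded IL-4 replicate 2, and the groups separated only after normalisation.

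The other sensors were closer to 0. Ifih1 encodes MDA5, a receptor for long double-stranded RNA, and its promoter had 8.59 and 11.1 in control and 10.1 and 15.6 in IL-4 (0.59 ± 0.43, SE, adjusted p = 0.773). The Ddx58 promoter (RIG-I, chr4:40239752-40239914) had low peaks in both control libraries, at 4.86 and 3.17, and none in IL-4. Over the 4 sensor genes, 8 of 18 regions were found in all 4 libraries, 6 with a change above 0 and 2 below, and the median was 0.38.

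The OAS proteins make the second messenger that activates RNase L. They had few constant regions, 2 of 9, which were the Oas2 promoter (15.8 and 9.75 in control, 14.0 and 10.8 in IL-4, 0.21 ± 0.39, SE) and an intron of Oas3. The Oas1a promoter had 5.09 and 8.33 in control and a peak in IL-4 replicate 2 alone (9.14), and the Oas3 promoter had a peak in every library except IL-4 replicate 2. Oasl1 had a single region, at −6307 bp from its start, in control replicate 1 alone.

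Among the RNA-binding and translation effectors, 11 of 26 regions were in all 4 libraries, with a median change of 0.24. The Eif2ak2 promoter, of the kinase PKR that halts translation, had 17.97 and 12.02 in control and 17.8 and 14.7 in IL-4 (0.35 ± 0.34, SE). The log2 difference was 0.24 ± 0.32 (SE) at the Ifit3 promoter, 0.18 ± 0.50 (SE) at the Ifit2 promoter and −0.49 ± 0.50 (SE) at the promoter of Isg20, an exonuclease. The lowest promoter region, of Adar at +63 bp from its upstream start, had a peak in control replicate 1 alone (4.38). Samd9l, a restriction factor of poxviruses, had its largest difference far from its start. A region at +53477 bp (chr6:3345940-3346233) had 7.21 and 6.51 in control and 9.54 and 11.7 in IL-4 (0.86 ± 0.48, SE, adjusted p = 0.661), with no overlap between groups.

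All 4 constant regions of the Mx genes, which encode dynamin-like GTPases that trap viral nucleocapsids, had a change above 0 (median 0.65). The Mx2 promoter at −30 bp (chr16:97535773-97536418) had 10.6 and 5.69 in control and 10.1 and 14.4 in IL-4 (0.85 ± 0.46, SE, adjusted p = 0.647), and with peaks within 500 bp merged the change was 0.18. The Mx1-named region in Bace2 (chr16:97431365-97431795) had 11.5 and 4.51 in control and 10.98 and 11.7 in IL-4 (0.88 ± 0.48, SE, adjusted p = 0.647). In both cases control replicate 2 was low and the first pair of libraries differed little, with changes of 0.10. The highest Mx promoter region, at −903 bp from the Mx2 start and with an ISRE in its window, had 21.7 and 21.9 in control and 18.2 and 27.1 in IL-4 (0.18 ± 0.28, SE). The Mx1 promoter had 12.7 and 11.2 in control and 15.03 and 12.99 in IL-4 (0.45 ± 0.38, SE).

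For ISG15 itself, its deconjugase Usp18 and the ubiquitin and ADP-ribose modifiers, 13 of 28 regions were in all 4 libraries and 10 of the 13 changes were above 0, at a median of 0.17. The Usp18 promoter had 17.8 and 14.1 in control and 20.1 and 15.4 in IL-4 (0.36 ± 0.32, SE, adjusted p = 0.823). The Herc6 promoter differed by 0.06 ± 0.23 (SE), and its 4 heights lay between 25.03 and 29.4. The lowest constant promoter of this group was that of Dtx3l at +23 bp, with 6.50 and 5.23 in control and 7.90 and 2.60 in IL-4 (−0.08 ± 0.55, SE). The highest Dtx3l peaks within 1 kb of the RefSeq start were stronger, at 19.01 and 13.5 in control and 20.3 and 11.9 in IL-4. Dtx3l encodes a ubiquitin ligase that works with the ADP-ribosyltransferase Parp9. The Trim25 promoter, of a ubiquitin ligase that acts on the RNA sensor pathway, lacked a peak in control replicate 2 and had heights of 2.12 to 7.66 in the other 3 libraries. Usp18 also had an IL-4-only region, which is described with the others of its kind.

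Of the 10 constant regions of the membrane and nucleotide restriction factors, 8 had a change below 0, against 50.1% of all regions, and the median was −0.32. None passed the test. Ifitm2 and Ifitm3 encode membrane proteins that block viral fusion. The Ifitm2 promoter had 11.6 and 7.53 in control and 6.21 and 3.73 in IL-4 (−0.73 ± 0.52, SE, adjusted p = 0.765). A region 11194 bp downstream of the Ifitm3 start (chr7:140999274-140999724) had 13.4 and 8.43 in control and 4.01 and 4.55 in IL-4 (−1.10 ± 0.53, SE, adjusted p = 0.584). Neither overlapped between groups. Bst2 encodes tetherin, which holds budding virions at the cell surface. Its region at +8571 bp (chr8:71528769-71528960) had 9.32 and 11.4 in control and 7.50 and 2.62 in IL-4 (−0.91 ± 0.53, SE, adjusted p = 0.674), and most of that difference came from the second pair (−1.71 against −0.12). The highest start region of the group was that of Cmpk2, a nucleotide kinase, in its exon 1, with 23.6 and 18.9 in control and 18.03 and 14.6 in IL-4 (−0.19 ± 0.30, SE). Among regions annotated as promoters the highest was that of Bst2, which had 9.37 and 15.2 in control and 8.50 and 7.09 in IL-4 (−0.36 ± 0.46, SE). Rsad2 encodes viperin, which makes a chain-terminating nucleotide, and its ISRE-bearing promoter was even across libraries, with 8.55 and 9.31 in control and 8.03 and 9.25 in IL-4 (0.20 ± 0.48, SE).

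The GBP and IRG GTPases, which attack the vacuoles of intracellular pathogens, split in both directions. Of 18 constant regions, 9 had a change above 0 and 9 below, with a median of −0.04. The Irgm1 promoter (chr11:48871269-48871729), whose overlapping ISRE pair is printed above, had 6.38 and 4.86 in control and 11.6 and 8.47 in IL-4. It was higher in both IL-4 libraries, with 1.09 ± 0.51 (SE, adjusted p = 0.568), the largest positive change of all members. With peaks within 500 bp merged the value was 0.42. The Gbp2 promoter around its ISRE (chr3:142620427-142620751) had 3.95 and 3.92 in control and 6.31 and 7.46 in IL-4 (1.03 ± 0.55, SE, adjusted p = 0.63), from a low level at percentile 6.86 of mean height over all tested regions. With peaks within 500 bp merged the Gbp2 change was 0.63. The Gbp2 peak of control replicate 1 did not cover the ISRE, so the 3.95 is not a height at the motif. The Gbp7 promoter differed by 0.58 ± 0.27 (SE, adjusted p = 0.571), a difference carried by IL-4 replicate 1, since the other 3 libraries lay between 19.1 and 19.5.

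Igtp and Irgm2, whose promoters are nearly identical around the ISRE, did not pass the test. The Igtp promoter had 16.5 and 15.1 in control and 14.8 and 3.85 in IL-4 (−0.81 ± 0.44, SE, adjusted p = 0.647), so that IL-4 replicate 2 gave nearly all of the difference. The Igtp peak of that library did not cover the ISRE. The Irgm2 promoter had 13.8 and 12.2 in control and 9.28 and 4.82 in IL-4 (−0.73 ± 0.46, SE, adjusted p = 0.715). Gbp5 had a region at −18376 bp with 12.2 and 12.9 in control and 6.38 and 6.41 in IL-4 (−0.74 ± 0.47, SE, adjusted p = 0.713), where replicates lay close together and the groups apart. Iigp1 had 1 region, in intron 1, with peaks in control replicate 2 (2.31) and IL-4 replicate 1 (11.8) only.

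The 3 constant regions of antigen processing genes had changes below 0. The divergent Tap1 and Psmb9 promoter (chr17:34187302-34187891) had 16.7 and 18.9 in control and 13.1 and 6.01 in IL-4 (−0.77 ± 0.39, SE, adjusted p = 0.616). The Psmb8 promoter, of a second immunoproteasome subunit, differed by −0.01 ± 0.47 (SE). Among the remaining genes, Nmi, an adaptor induced by interferon, had neighbouring regions that went opposite ways. The region at +195 bp had a change of 0.64 ± 0.49 (SE) and the one at +911 bp of −0.76 ± 0.50 (SE), with adjusted p of 0.781 and 0.723. The Trim30a promoter, which bears the ISRE printed above, had 21.1 and 20.2 in control and 25.97 and 15.95 in IL-4 (0.17 ± 0.28, SE). The Xaf1 and Ifi35 promoters differed by 0.05 ± 0.31 and 0.03 ± 0.37 (SE).

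**Figure D4:**
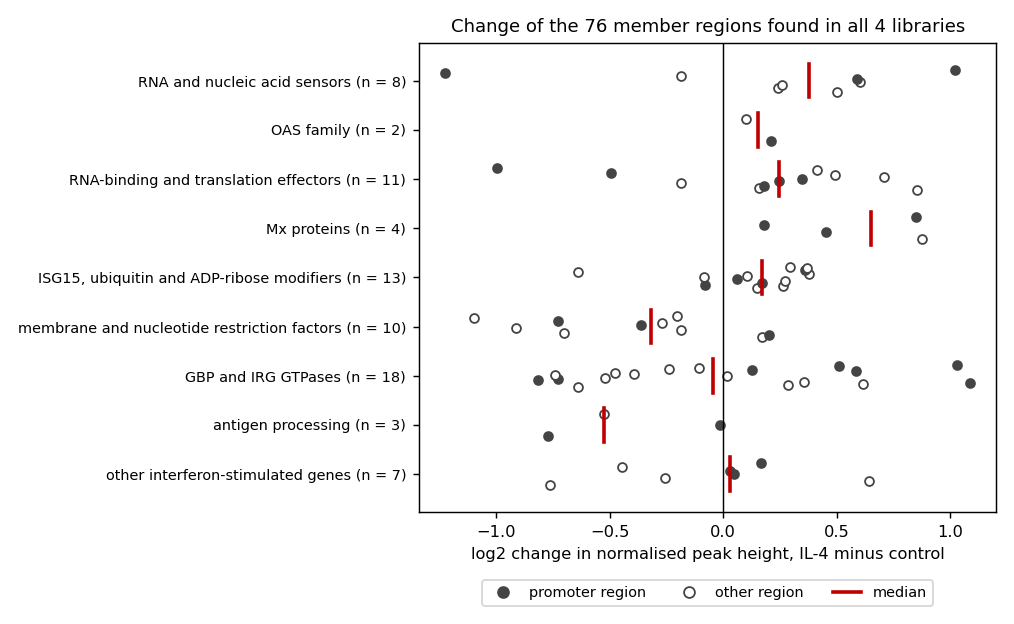
The log2 change in normalised height (x axis, IL-4 minus control) of the 76 member regions found in all 4 libraries, by role of the gene (rows, with the number of regions). Filled points are promoters, open points other regions and red lines medians. Mx regions lie above 0, 8 of 10 regions of the membrane and nucleotide restriction factors lie below 0, and the GBP and IRG GTPases spread to both sides.

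The second comparison counted presence alone, that is, peaks shared by the replicates of 1 group and absent from the other group. Members had 4 IL-4-only regions (2.61%, background 2.53%) and 7 control-only regions (4.58%, background 4.33%), so both shares were near those of all regions. With 1 library left out these counts moved to 7 (without control replicate 1), 14 (without IL-4 replicate 1) and 18 (without IL-4 replicate 2) for IL-4-only, and to 11, 12 and 15 without the same libraries and 19 without control replicate 2 for control-only. Leaving out a library loosens the rule, so these counts could only stay or rise, and no share over all regions stands beside them. The heights of the 11 regions found with all 4 libraries ran from 2.31 to 9.19.

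The IL-4-only regions were the Ifitm3 promoter (chr7:141010674-141010856, 4.22 and 5.86), intron 1 of Usp18 (4.51 and 5.05), the last exon of Dhx58 (2.95 and 2.49) and a site at −25309 bp from Samd9l (2.31 and 3.61). The window at the Ifitm3 promoter held the letters of an ISRE and of a GAS. The control-only regions were an intron of Samd9l at +2090 bp (7.69 and 9.19), a site in Kcnn3 at −74043 bp from Adar (6.45 and 6.18), exon 6 of Gbp2 (6.96 and 4.95), a site at +24417 bp from Irgm2 (4.38 and 6.18) and an intron of Pmepa1 at −11099 bp from Zbp1 (3.67 and 4.90). The promoters of Sp100, a nuclear body protein (6.06 and 3.37) and Ddx58 complete the list. Samd9l thus had an IL-4-only and a control-only region, and the IL-4-only exon of Dhx58 stood beside a promoter that was lower after IL-4.

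The genes that carry the interferon signal were listed apart, as 24 genes with 145 regions, 70 of them in all 4 libraries. None passed the limma threshold in either direction, 33 changes were above 0 and 37 below, and the median was −0.02. The promoters of the pathway covered a wide range of heights. Irf7 and Socs1 were low (7.99 and 6.09 in control and 7.39 and 8.58 in IL-4 for Irf7, 6.04 and 9.98 in control and 7.64 and 9.98 in IL-4 for Socs1), and Irf8, Tlr3, Tlr7 and Tlr9 promoters lacked a peak in at least 1 library. A Tlr3 region at +186 bp had a peak in every library. The Tlr7 promoter had 5.6 and 6.0 in control and no peak in IL-4. Among the highest were Stat2 (33.8 and 27.2 in control, 27.3 and 20.7 in IL-4, −0.21), Mavs, the adaptor of the RNA sensors (25.4 and 23.8, 28.3 and 23.4, 0.22), and Ifnar1, a receptor chain (22.1 and 29.3, 33.1 and 12.99, −0.12). The promoter of Irf5, an interferon regulatory factor, had 20.1 and 23.5 in control and 12.6 and 9.48 in IL-4 (−0.78, adjusted p = 0.543), without overlap. The largest difference was in an intron of Jak1 at +62442 bp, with 19.1 and 13.6 in control and 4.11 and 3.78 in IL-4 (−1.78 ± 0.49, SE, adjusted p = 0.228). By role, the median change was −0.07 for ligands and receptors, −0.07 for kinases and their inhibitor Socs1, −0.13 for transcription factors and 0.22 for upstream sensing, where 12 of 16 changes were above 0. Of the 145 pathway regions, 5 were IL-4-only and 4 control-only, where the shares over all regions were 2.53% and 4.33%. These small counts were not tested. The highest IL-4-only one lay at −12110 bp from Jak2, with 20.7 and 12.9 in IL-4 and no peak in control.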

How the data were processed

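The deposited peak lists of control (n = 2) and IL-4-stimulated (n = 2) BMDMs were analysed. Per the submitters' processing notes, BWA 0.7.10, SAMtools 0.1.19, HOMER 4.2 and MACS2 2.0.10 were used with mm10. The authors called peaks per library, without pooling, and removed blacklisted regions. The unit of the deposited score is not stated, and −log10 of the MACS2 q-value was inferred from its lowest values (1.3 to 1.32). The cut-off named in the methods would correspond to a score of 2, and 133 to 603 peaks per library scored lower, so the unit is uncertain. Treatment of the Tn5 offset, duplicates and multi-mapped reads is not given in the sources used here. No reads were used, so DiffBind was not run.

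Only chromosomes 1 to 19, X and Y entered the analysis, and the merge was checked with bedtools 2.31.1. On regions in all 4 libraries, quantile-normalised log2 heights entered a limma 3.58.1 fit (R 4.3.3, eBayes with a trend, Benjamini-Hochberg adjustment over all 25442 regions), which was tested on simulated data. The limma SEs and p-values are not the replicate spread of 1 region alone, because eBayes draws each variance towards a trend over all regions. The Gbp5 region at −18376 bp and the Zbp1 promoter thus had SEs of 0.47 and 0.48, though replicates lay closer together at Gbp5. Intervals of shares cover counting error only. Regions of 1 gene are not replicates. Named regions were the 10 constant members with the largest change of 1 direction in both pairs, those found in 1 group only (5 at most of each), the highest and lowest promoters per role and ISRE-bearing promoters, and others were added after their values were seen. The members, lists and tests were chosen with earlier results of these data known.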

Additional observations from a re-analysis of the deposited data

How the results depend on the processing

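No member region passed the threshold in either direction under any of the 12 alternative fits or when members beyond 50 kb were left out. The alternative fits were median centring, no variance trend, score minimums of 2 and 5, merging within 500 bp, an overlap of at least 50 bp, regions in at least 3 libraries, a replicate block and leaving out each library. The lowest adjusted p of a member was 0.272, with regions in at least 3 libraries. Few regions passed in the whole data set as well. With regions in at least 3 libraries, 28 of 33513 passed as higher and 8 as lower, and with no variance trend 0 of 25442 passed. With so few calls, 0 among the members lies near the share over all regions and does not show a lack of change. All 113 recomputed changes of the 10 named constant regions kept their direction, but the size of 7 moved by over 1.5 times. These regions were chosen for a large change of 1 direction in both pairs of the same libraries. The kept direction was thus largely set by the choice and is no independent check. With peaks within 500 bp merged, Irgm1 went from 1.09 to 0.42, Gbp2 from 1.03 to 0.63 and Mx2 from 0.85 to 0.18. With 1 library left out, Zbp1 ran to 0.40 (without control replicate 2) and 1.64 (without control replicate 1), Mx1 to 0.30 and 1.45 (the same libraries), Bst2 to −0.37 (without IL-4 replicate 2) and −1.46 (without IL-4 replicate 1), Samd9l to 0.55 (without IL-4 replicate 2) and Mx2 to 0.44 and 0.51 (without IL-4 replicate 2 and control replicate 2). The median member change ran from 0.00728 (without control replicate 2) to 0.131 with 1 library left out, against 0.14. With 1 library left out, IL-4-only members ran from 5 to 18 and control-only members from 11 to 19, against 4 and 7. These counts could only stay or rise, because leaving out a library loosens the rule. With a score of at least 5, IL-4-only members were 2 and promoters 36.1% of members. With peaks within 500 bp merged, 58.1% of members were in all 4 libraries. The ISRE was in 15.7% of member windows of 100 bp (1.62% of all), 26.8% of 300 bp (4.62% of all) and 25.5% of whole regions (3.62% of all). The causes of these moves were not tested.

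Replicate numbers are shared by control and IL-4 libraries. The deviations of same-numbered libraries from their group means had a Pearson's r of 0.00677 and a Spearman's rho of 0.00637 over the 25442 regions. The main fit therefore did not treat the numbers as pairs. Where pairs are named, as in the choice of the named constant regions, the numbers only match libraries for description. With the replicate block, 0 members were called higher and 0 lower, the median change was 0.14 and over all regions 11 were called higher and 3 lower, against 4 and 2 without it. The score grows with depth, which is unknown, so a missing peak says only that none was detected in that library.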
